A study of Mus musculus with 6 samples.

Results

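Zfp genes are mouse genes named for the zinc fingers of their proteins, and the 206 described here are those with a signal in embryonic stem (ES) cells. They were chosen by name and by level: the symbol had to be Zfp with a number and at most 1 further letter, and the mean over all 6 arrays had to reach 4 on the log2 scale. Zfp42, which encodes the ES cell marker Rex1, was left out by the rule. The array carried 328 such genes, of which 122 lay under the minimum. Together with all other genes that reached it, 8782 of 18193 genes were tested. Because the level chose the members, their levels are given as a description only.

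The cells were mouse ES cells whose Dicer (Dcr, listed as Dicer1 on the array) alleles are both floxed, that is flanked by loxP sites, and all arrays share this background. Dcr WT cells were transfected with GFP alone and Dcr KO cells with GFP and Cre recombinase, and total RNA was taken 5 days later. Each group had 3 arrays, described in the methods as biological triplicates, and the cells were an unselected polyclonal population grown on gelatin with serum and LIF. No group received Cre without the floxed alleles, so effects of Cre and of the deletion cannot be told apart. In bulk RNA, fewer cells of a kind and less RNA per cell cannot be told apart either.

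Dicer cuts miRNA precursors into mature miRNAs, which lower the level of mRNAs that carry matching seed sites. Many Zfp proteins are DNA-binding factors made of strings of C2H2 fingers, and a large share of them also carry a KRAB domain. KRAB binds the corepressor Trim28 (KAP1), which brings the histone methyltransferase Setdb1 to retroelements and imprinted regions and holds them silent in ES cells. Other Zfp genes have nothing in common with these but a zinc finger, and encode RNA-binding proteins, ubiquitin or SUMO ligases and activators of pluripotency genes.

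Values are log2 expression, and a gene's value is the mean over its probe sets, the groups of short probes that the array holds for a transcript. Dicer1 read 7.78, 7.89 and 7.16 on the Dcr WT arrays and 6.33, 6.59 and 5.92 on the Dcr KO arrays. It fell by 1.33 with a standard error of 0.23 (adjusted p = 0.0134 from limma), with no overlap between groups. All 9 ES cell markers looked at were above the minimum, and 0 were called. In 4 of them every Dcr KO array lay above every Dcr WT array. In 2, Tdgf1 (-0.34) and Utf1 (-0.25), every one lay below. The summed linear signal of the 9, in which the brightest weigh most, ranged from 43724 to 48317 in Dcr WT. In Dcr KO it ranged from 48982 to 50236. Of the markers of other cell types, 2 of 8 for fibroblast, 2 of 8 for primitive endoderm, 3 of 6 for trophectoderm, 2 of 4 for neural and 2 of 3 for primitive streak cells reached the minimum. The endoderm factors Gata4, Gata6, Sox17 and Foxa2 and the neural factors Pax6 and Sox1 did not. The summed primitive endoderm signal ranged from 173 to 220 in Dcr WT and from 249 to 267 in Dcr KO, mainly through Lama1. Of these markers the laminin gene Lama1 was called higher (0.52, adjusted p = 0.0409 from limma). Dab2, the other one tested, was not called (-0.07). The summed neural signal ranged from 317 to 370 in Dcr WT and from 515 to 594 in Dcr KO, mainly through the tubulin gene Tubb3. Tubb3 was called higher (0.73, adjusted p = 0.0100 from limma), and Nes was not called (-0.07). Under the minimum, Pax6 and Sox1 differed by 0.58 and 0.89. Of the 3 trophectoderm markers tested 0 were called, with Gata3 at 0.84 (adjusted p = 0.0621 from limma). The summed primitive streak signal ranged from 94 to 177 in Dcr WT and from 96 to 108 in Dcr KO. Its tested markers Mixl1 (-0.643) and Eomes (-0.265) were not called. The part of any other cell type in the Zfp values was not tested.

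Of the 206 Zfp genes, 26 passed the test between groups (adjusted p under 0.05 from limma, adjusted over all 8782 genes), which is 12.6% beside 13.3% of all genes tested. That share is near the background and is no result about the Zfp genes. By direction, 19 Zfp genes (9.22%) were higher in Dcr KO beside 6.91% of all genes, and 7 (3.40%) were lower beside 6.42%. All 26 had groups that did not overlap. In all, 86 Zfp genes (41.7%) had groups apart, beside 38.9% of all genes. Of these, 54 Zfp genes (26.2%) had every Dcr KO array above every Dcr WT array beside 17.7% of all genes, and 32 (15.5%) had every one below beside 21.2%. Before adjustment, p from limma was under 0.05 for 47 Zfp genes that were higher (22.8% beside 14.7% of all genes) and 28 that were lower (13.6% beside 17.3%). Whether the split between rises and falls differs from that of other genes was not tested. The counts were lower when some single arrays were dropped, for the Zfp genes and for all genes. Dropping replicate 2 of Dcr KO left 7 Zfp genes higher and 3 lower, beside 220 and 137 of all genes. Dropping replicate 3 of Dcr WT left 9 higher and 4 lower, beside 284 and 155 of all genes, and dropping replicate 3 of Dcr KO left 11 and 5, beside 384 and 299.

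By gene means the differences were small, with a median size of 0.23 beside 0.21 over all genes tested. The median over the 206 genes was 0.04 on the log2 scale (quartiles -0.18 and 0.29), with 110 genes above 0, beside a median of -0.02 (quartiles -0.22 and 0.19) over all genes tested. On each Dcr KO array the median Zfp gene stood 0.04, 0.04 or 0.05 above its Dcr WT mean, while the median of all genes stood 0.02 to 0.03 below. By gene means no Zfp gene was up at least 2-fold beside 1.66% of all genes, and 1, Zfp946, was down at least 2-fold beside 0.945%. Single probe sets rose more than 2-fold in Zfp451 (up to 2.69), Zfp148 (up to 2.53), Zfp704 (2.51) and Zfp84 (2.04). At 1.5-fold, 16 were up (7.77% beside 5.85% of all genes) and 10 were down (4.85% beside 5.65%). At 1.2-fold, the fold the study uses, 56 were up (27.2% beside 19.2%) and 34 were down (16.5% beside 21.0%). The median SD over the replicate arrays of a gene was 0.16 in Dcr WT and 0.13 in Dcr KO.

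**Figure D1:**
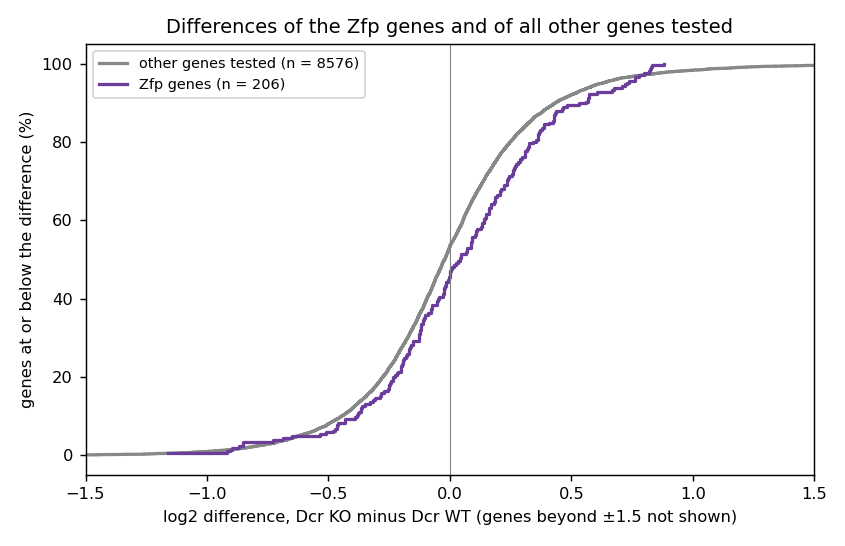
Cumulative share of genes (percent) against the log2 difference between Dcr KO and Dcr WT, for the 206 Zfp genes and for the 8576 other genes tested. The curve of the Zfp genes lies to the right over most of the range, with a median of 0.04 beside -0.02 over all genes tested, and it ends at 0.88.

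In the plot of cumulative shares, the curve of the Zfp genes runs to the right of that of the other genes around its middle. No test of that shift was run, and the ends of the curves are not comparable, since the Zfp genes are far fewer.

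Zfp654 had the largest rise among the 26 genes. It read 6.95, 7.08 and 6.80 on the Dcr WT arrays and 7.54, 7.84 and 8.09 on the Dcr KO arrays. Every Dcr KO array lay above every Dcr WT array, by 1.84-fold in the mean. The log2 difference was 0.88 with a standard error of 0.15 (limma adjusted p = 0.0140). It no longer passed when replicate 3 of Dcr WT or replicate 2 of Dcr KO was dropped, with a highest adjusted p of 0.0562 from limma. Its only probe set is of a kind that matches more than 1 transcript.

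Zfp148, also called ZBP-89, encodes a factor that binds GC-rich promoters. It read 7.05, 7.04 and 7.04 on the Dcr WT arrays and 7.91, 7.86 and 7.87 on the Dcr KO arrays. By gene means these are the tightest replicates among the called genes, and Zfp148 had the smallest adjusted p of all Zfp genes (1.78-fold, adjusted p = 0.00288 from limma). The mean evens out its 6 probe sets, whose single SDs reached 0.34 in Dcr WT and 0.49 in Dcr KO. By the brightest probe set, limma gave Zfp148 an adjusted p of 0.0104, and Zfp704 had the smallest (0.00221). Of the 6 probe sets of Zfp148, 5 were called higher when tested singly, with differences from 0.55 to 1.34, and the dimmest, at 0.18, was not. The call held without any single array.

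Zfp704 read 5.20, 5.46 and 5.15 on the Dcr WT arrays and 6.14, 6.13 and 6.03 on the Dcr KO arrays. The groups were clearly apart, with a 1.77-fold rise (adjusted p = 0.00643 from limma). Its 2 probe sets differed in size, with a log2 difference of 1.33 in the brighter and 0.33 in the dimmer.

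Zfp229 and Zfp180 are multi-finger genes with 1 probe set each. Zfp229 read 7.22, 7.61 and 7.62 in Dcr WT and 8.21, 8.33 and 8.37 in Dcr KO. Zfp180 read 6.46, 6.58 and 6.30 in Dcr WT and 7.41, 7.28 and 7.04 in Dcr KO. Neither gene had overlapping groups, the rises were 1.77-fold and 1.74-fold, and both calls held without any single array.

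Zfp819 encodes a KRAB protein that represses retrotransposons in pluripotent cells. It read 6.83, 7.13 and 7.18 in Dcr WT and 7.69, 7.92 and 7.86 in Dcr KO, which is a 1.71-fold rise (adjusted p = 0.0114 from limma). With replicate 2 of Dcr KO dropped, the adjusted p from limma was 0.0503.

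Zfp326 is a subunit of the DBIRD complex, which links transcript elongation to exon choice in splicing. It read 8.15, 8.42 and 8.11 in Dcr WT and 8.81, 8.86 and 9.14 in Dcr KO. All 3 Dcr KO arrays were above the Dcr WT arrays, with a 1.64-fold rise (adjusted p = 0.0174 from limma) that did not pass once replicate 3 of Dcr WT or replicate 2 of Dcr KO was dropped. Zfp74 read 8.42, 8.73 and 8.65 in Dcr WT and 9.13, 9.25 and 9.23 in Dcr KO, a 1.52-fold rise. With replicate 2 of Dcr KO dropped, its adjusted p from limma was 0.0673.

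Zfp451 encodes a SUMO ligase, and its value depends on which probe sets are read. The gene mean was 5.99, 6.16 and 5.75 in Dcr WT and 6.59, 6.70 and 7.08 in Dcr KO (1.77-fold, adjusted p = 0.0193 from limma). Of the 4 probe sets above the minimum, the brightest read 9.60, 9.70 and 9.53 in Dcr WT and 9.55, 9.66 and 9.49 in Dcr KO, with overlapping groups and a difference of -0.04. The others differed by 1.43, 1.40 and 0.60, and the first pair of these were called higher. The gene also failed the test when replicate 3 of Dcr WT or replicate 2 of Dcr KO was dropped (highest adjusted p = 0.0669 from limma). Zfp84 had the same kind of split, with a difference of -0.03 in its brightest probe set, which matches more than 1 transcript, and 1.03 in the next.

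Zfp827, whose human homolog recruits the NuRD complex to telomeres, and Zfp658 lay near the minimum. Zfp827 read 3.61, 3.74 and 3.53 in Dcr WT and 4.73, 4.38 and 4.05 in Dcr KO, and it entered the test only through its Dcr KO values, so its rise had to be present. It passed in none of the 3 fits that left out an array and still tested it (highest adjusted p = 0.0960 from limma). Zfp658 read 4.07, 4.03 and 3.79 in Dcr WT and 4.76, 4.73 and 4.59 in Dcr KO, and its Dcr WT mean of 3.96 was also under the minimum. So Zfp658 too entered the test only through its Dcr KO values. Its call held without any single array, but those fits used the same minimum on the arrays kept, so this adds no support.

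The other genes called higher were Zfp790 (log2 difference 0.72), Zfp868 (0.67), Zfp846 (0.57), Zfp236 (0.57), Zfp512b (0.48), Zfp52 (0.43) and Zfp141 (0.38). Zfp868 was called in all 6 fits that left out an array, Zfp790 in 2 and Zfp52 in none. Zfp846, Zfp236, Zfp512b, Zfp141 and Zfp84 were called in 1 of the 6. Calls over all genes also fell in each such fit, from 1171 to between 357 and 783, and the cause was not tested.

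**Figure D2:**
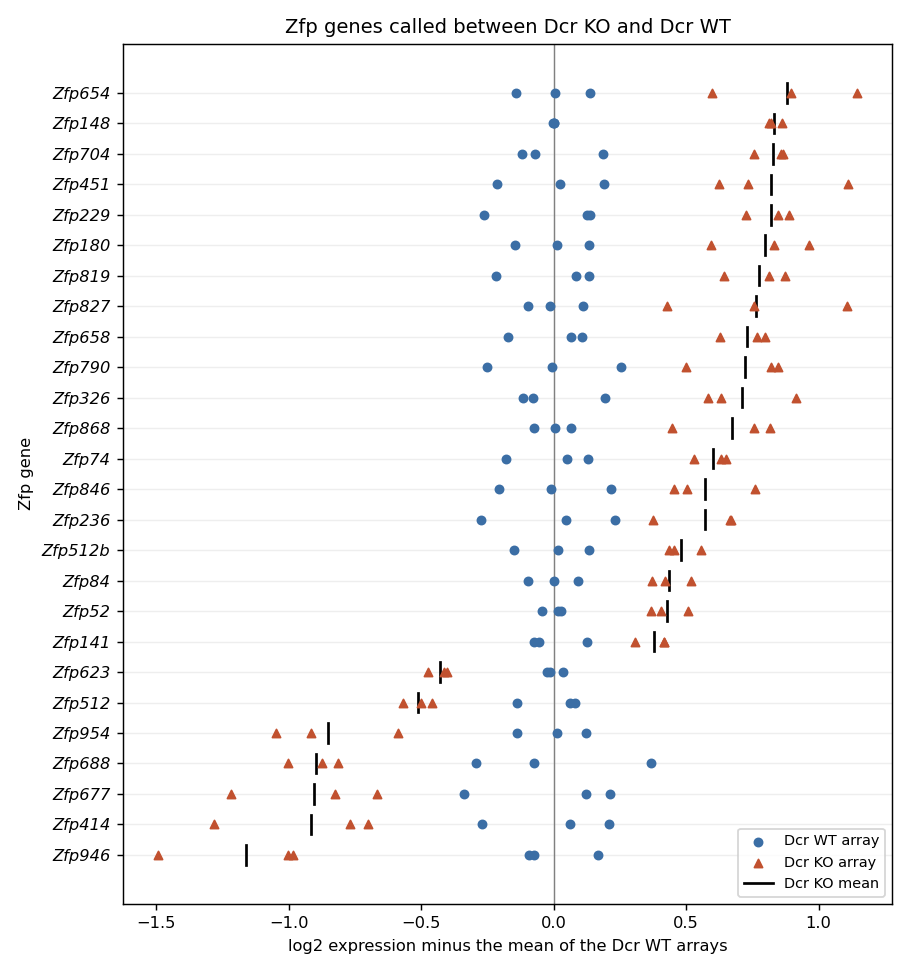
Log2 expression of the 26 Zfp genes that passed the test, each array drawn relative to the gene's mean over the 3 Dcr WT arrays (circles, Dcr WT arrays; triangles, Dcr KO arrays; black line, Dcr KO mean). The circles and triangles overlap in no gene, 19 genes lie to the right and 7 to the left, and Zfp946 is farthest from 0 at -1.16.

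Falls were fewer. By gene means the largest fall exceeded the largest rise, but by the brightest probe set Zfp704, at 1.33, differed more than any fall. Zfp946 read 8.51, 8.25 and 8.27 in Dcr WT and 7.36, 7.34 and 6.85 in Dcr KO. It was 2.23-fold lower with no overlap (log2 difference -1.16 with a standard error of 0.16, limma adjusted p = 0.00647), and the call held without any single array. In the plot of called genes its Dcr KO arrays lie farthest from the Dcr WT mean.

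Zfp954 read 5.30, 5.56 and 5.45 in Dcr WT and 4.52, 4.85 and 4.39 in Dcr KO. The difference was -0.85 (adjusted p = 0.0117 from limma), and Zfp954 and Zfp946 were the only falls called in all 6 fits that left out an array. Zfp688 read 6.24, 6.02 and 6.68 in Dcr WT and 5.44, 5.50 and 5.31 in Dcr KO, a difference of -0.90. With replicate 2 of Dcr KO dropped, its adjusted p from limma was 0.0509.

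Zfp414 read 6.77, 6.29 and 6.62 in Dcr WT and 5.28, 5.79 and 5.86 in Dcr KO, with a difference of -0.92. Zfp677 read 6.25, 6.80 and 6.71 in Dcr WT and 5.76, 5.92 and 5.37 in Dcr KO, with a difference of -0.90. Both had wide replicates and were called in 3 of the 6 fits that left out an array. Zfp414 did not pass with replicate 1 or 3 of Dcr WT dropped, nor with replicate 2 of Dcr KO dropped (highest adjusted p = 0.0803 from limma). Zfp677 did not pass with replicate 2 or 3 of Dcr WT dropped, nor with replicate 3 of Dcr KO dropped (highest adjusted p = 0.0870 from limma).

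Zfp512 and Zfp623 had small falls with tight replicates. Zfp512 read 8.73, 8.71 and 8.51 in Dcr WT and 8.15, 8.19 and 8.08 in Dcr KO, and Zfp623 read 8.31, 8.30 and 8.36 in Dcr WT and 7.91, 7.92 and 7.85 in Dcr KO. Each was called in 1 of the 6 fits that left out an array. Zfp512 and its paralog by name, Zfp512b, were called in opposite directions, at -0.51 and 0.48. Among genes with a large difference that did not pass, Zfp746 (-0.87, adjusted p = 0.0702 from limma) and Zfp811 (-0.85, adjusted p = 0.0871 from limma) had Dcr KO SDs of 0.60 and 0.66.

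All 7 genes called lower have a single probe set on the array. Of the 103 Zfp genes with 1 probe set, 9 were higher and 7 lower (15.5% called). Of the 103 with several, 10 were higher and 0 lower by limma on the gene means (9.71% called). The share over all genes was 13.3%. All genes were not split by number of probe sets, so this split is no result about the Zfp genes. When each gene was read from its brightest probe set instead of the mean, 23 were higher and 13 lower. Over all genes that reading gave 748 higher and 778 lower (15.7% called, with more genes tested), so the count of falls depends on how probe sets are combined. The 6 falls this added were Zfp811 (-0.97), Zfp608 (-0.61), Zfp39 (-0.60), Zfp322a (-0.58), Zfp646 (-0.56) and Zfp955b (-0.44). It also added 9 rises, the largest in Zfp697 (0.81), Zfp91 (0.78) and Zfp719 (0.71), and 5 of the 19 rises were not called, among them those of Zfp451 and Zfp84. Zfp697, with a brighter probe set at 5.41 in Dcr WT and a dimmer at 3.25, differed by 0.81 in the first and -0.52 in the second. Of 65 Zfp genes with at least 2 probe sets above the minimum, 42 had all of these on the same side of 0, and 0 had probe sets called in opposite directions by limma. Of these 65, 5 genes were not called although at least 1 of their probe sets was.

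**Figure D3:**
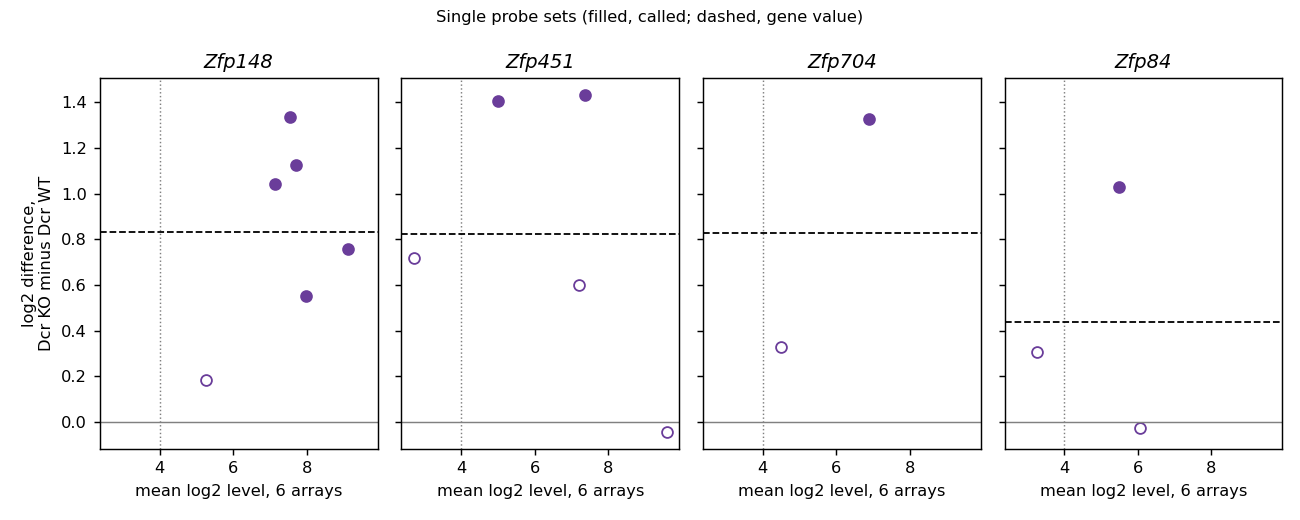
Log2 difference between Dcr KO and Dcr WT of single probe sets against their mean log2 level over 6 arrays, for Zfp148, Zfp451, Zfp704 and Zfp84 (filled, called; dashed line, value of the gene; dotted line, minimum of 4). The brightest probe sets of Zfp451 and Zfp84 lie at -0.04 and -0.03, while 5 of the 6 of Zfp148 were called higher.

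The plot of single probe sets shows that these genes differ in how far their probe sets share a direction. The probe sets of Zfp148 all lie above 0, whereas the gene values of Zfp451 and Zfp84 average probe sets near 0 and above 1. Where each probe set lies along its transcripts was not analysed here.

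By role, genes tied to transcription in stem cells come first. Of 19 listed, 15 were tested, 2 were higher (Zfp148 and Zfp704) and 0 lower by limma, which is 13.3% called, the same share as over all genes. The median difference was 0.21 beside -0.02 over all genes. Zfp296, which works with Klf4 in reprogramming, read 7.62, 8.04 and 8.25 in Dcr WT and 8.27, 8.66 and 8.98 in Dcr KO. Its groups did not overlap, but the spread within them was wide (difference 0.67, adjusted p = 0.0785 from limma). Zfp281, a partner of pluripotency factors that is needed for the exit from the naive state, had Dcr WT and Dcr KO levels of 10.47 ± 0.10 and 10.54 ± 0.09 (SD, n = 3 each). Zfp322a, which activates pluripotency genes, had levels of 8.52 ± 0.21 and 8.08 ± 0.13 (SD, n = 3 each; limma adjusted p = 0.0678). It was the member of this list with the lowest difference, and its brighter probe set was called lower.

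Of the others in this list, Zfp423, an early B cell factor partner, differed by 0.43, Zfp110 by 0.39 (adjusted p = 0.0597 from limma), Zfp24 by 0.31 and Zfp462, which keeps heterochromatin at lineage genes, by 0.28. Zfp335, Zfp516 and Zfp131 differed by 0.18 to 0.21 and Zfp217 by 0.00. Zfp207 (BuGZ), which also serves spindle assembly, differed by -0.09 and Zfp219 by -0.19. None of these passed the test. Zfp521 and Zfp703 lay under the minimum, and no probe set with a single symbol stood for Zfp143 or Zfp706.

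Genes that repress imprinted regions or retroelements held 1 call, the rise of Zfp819, among 9 tested of 10. That is 11.1%, near the 13.3% of all genes, and the median was 0.23. Zfp57, which keeps methylation at imprinted regions, read 6.61, 7.22 and 6.74 in Dcr WT and 6.49, 6.79 and 7.29 in Dcr KO, so both means were 6.86 and the groups overlapped throughout. Zfp445, which shares that task, differed by -0.08 (standard error 0.25), with Dcr WT arrays spread from 7.55 to 8.59. Its brightest probe set was tight, at 10.75, 10.74 and 10.51 in Dcr WT. The dimmer ones were lowest on replicate 2 of Dcr WT, at 6.32 and 5.58. Single probe sets of other Zfp genes, such as Zfp266 and Zfp729b, were also lowest on that array, and the cause was not tested. Zfp568, which silences the placental Igf2 transcript, read 7.07, 6.77 and 7.03 in Dcr WT and 7.10, 7.43 and 7.92 in Dcr KO. It did not pass (difference 0.53, adjusted p = 0.118 from limma). Its brighter probe set had means of 10.79 in Dcr WT and 11.01 in Dcr KO, a difference of 0.23. The other lay under the minimum, at 3.12 and 3.95, and differed by 0.83.

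Zfp809, which binds the primer binding site of murine leukaemia viruses, differed by 0.24 with overlapping groups. Zfp708 and Zfp932, both tied to families of endogenous retroviruses, differed by 0.43 (adjusted p = 0.237 from limma) and -0.13, Zfp961 by 0.23 and Zfp37 by -0.05. Only Zfp92 lay under the minimum.

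Zfp genes whose products act on RNA or protein turnover were all tested, 9 of 9, with 1 higher, Zfp326, which is 11.1% beside 13.3% of all genes, and a median of 0.00. Zfp385a read 4.33, 5.32 and 4.93 in Dcr WT and 5.73, 5.59 and 5.55 in Dcr KO. Its groups did not overlap, but the Dcr WT arrays were widely spread (difference 0.76, adjusted p = 0.0626 from limma). Zfp91, a ubiquitin ligase, differed by 0.36 in the gene mean (adjusted p = 0.0641 from limma) and by 0.78 in its brightest probe set. Zfp36 (tristetraprolin), which speeds decay of mRNAs with AU-rich elements, differed by -0.16, and Zfp598, which marks collided ribosomes, by -0.25 with groups that did not overlap (adjusted p = 0.151 from limma). Zfp106, Zfp346, Zfp638 and Zfp622, the last a factor of large ribosomal subunit assembly, lay between -0.19 and 0.14.

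**Figure D4:**
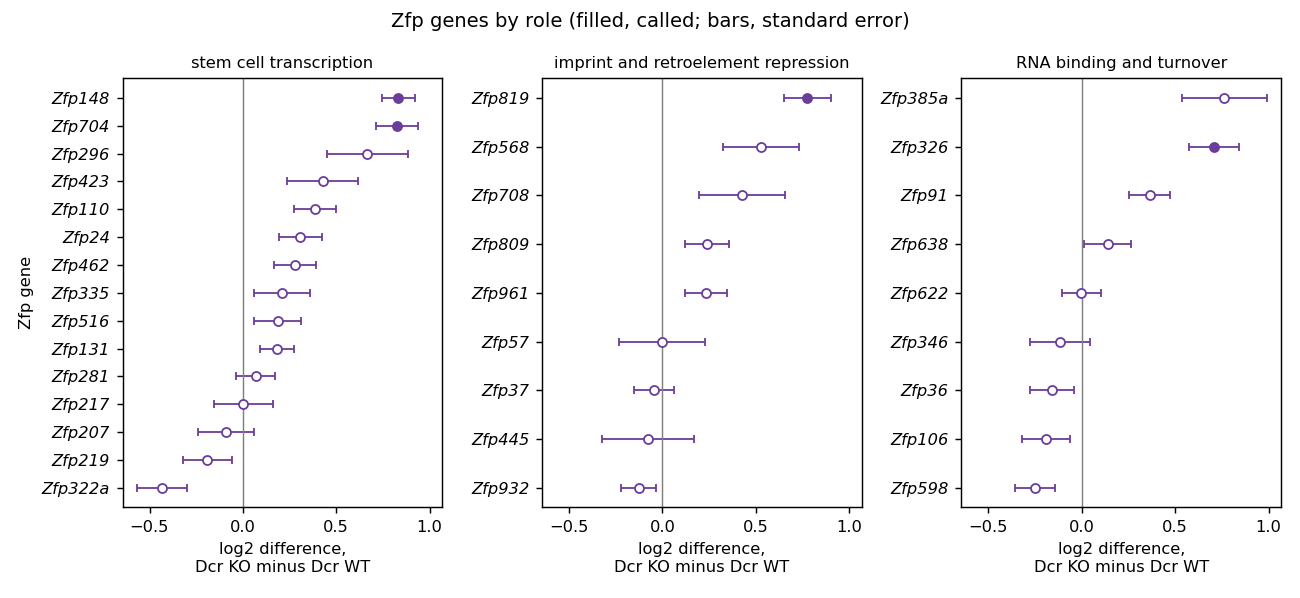
Log2 difference between Dcr KO and Dcr WT of the Zfp genes of 3 role lists (bars, standard error from limma; filled, called). Filled points are Zfp148 and Zfp704 for stem cell transcription, Zfp819 for imprint and retroelement repression and Zfp326 for RNA binding and turnover.

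In the plot by role, each list spans both sides of 0, and the bars of Zfp57, Zfp445 and Zfp385a are among the widest. The partners of KRAB zinc fingers were read in the same fit. Of 30 genes of the KRAB corepressor machinery, 26 were tested, 1 was higher and 0 lower by limma, which is 3.85% called beside 13.3% of all genes, with a median of 0.05. That difference in shares was not tested. The rise was in Tasor, a subunit of the HUSH complex that works with Setdb1, from 9.08 ± 0.01 to 9.56 ± 0.16 (SD, n = 3 each) (adjusted p = 0.0305 from limma). Mphosph8, another HUSH subunit, went the other way, with 9.82 ± 0.05 and 9.50 ± 0.06 (SD, n = 3 each), and did not pass (limma adjusted p = 0.0622). Trim28 itself had 12.66 in Dcr WT and 12.63 in Dcr KO (adjusted p = 0.889 from limma). The next smallest adjusted p-values were those of Chaf1b (-0.27) and Smarcad1 (0.46), both not called. Setdb1 (0.40, standard error 0.35) and Ehmt2 (0.42, standard error 0.33) were not called either. Their Dcr WT replicates were wide, with SDs of 0.81 and 0.66 beside a median of 0.16 over the list.

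Other zinc finger families were read in the same fit. Of 25 Zbtb genes tested, 3 were higher and 0 lower by limma (12%), with a median of 0.08. Of 12 Zscan and Zkscan genes, 1 was higher and 0 lower by limma (8.33%), with a median of -0.06. The share over all genes was 13.3%. No difference between these families and the Zfp genes was tested.

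The study asked which mRNAs are targets of the miR-290 to miR-295 cluster, the most abundant miRNAs of these cells, and gave a list of candidates. Its mature 3p miRNAs are shown because their seeds are the letters by which targets are predicted. Sequences are from RefSeq (GRCm38.p6), written 5′ to 3′ with the seed, bases 2 to 8, in capitals. The seed AAGUGCU is shared by the first 3, and the other 2 differ from it in the last base only.
miR-291a-3p: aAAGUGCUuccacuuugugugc
miR-294-3p: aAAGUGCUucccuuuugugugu
miR-295-3p: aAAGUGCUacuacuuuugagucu
miR-290a-3p: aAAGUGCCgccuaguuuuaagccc
miR-291b-3p: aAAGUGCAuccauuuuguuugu

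All 5 lie on the plus strand of chromosome 7, from miR-290a-3p at chr7:3218674-3218697 to miR-295-3p at chr7:3220815-3220837. The cluster also holds miR-292a-3p. The miRNAs themselves were not measured on these arrays.

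The candidate list held 807 symbols, 26 of them Zfp names, and 20 of those were among the 206 genes. The study drew the list in part from these arrays, so it is no independent evidence of direction. Of the 20, 7 were called higher (Zfp148, Zfp704, Zfp180, Zfp790, Zfp326, Zfp74 and Zfp84), 0 were lower by limma, 18 were up at least 1.2-fold, and the median was 0.43. The 644 other candidates tested had the same median of 0.43, with 241 higher and 0 lower. Of the 186 Zfp genes not on the list, 12 were higher and 7 lower, with a median of 0.00, beside 347 higher and 557 lower of 7932 other genes, with a median of -0.05. The largest rise of all, Zfp654, and those of Zfp451, Zfp229 and Zfp819 were outside the list, as were all 7 falls. The candidates with the lowest differences were Zfp697 (0.14) and Zfp53 (0.21), both with overlapping groups. Seed sites in the transcripts were not searched here.

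Zfp genes often stand side by side in the genome, having arisen by repeated duplication. By the order of protein-coding genes in RefSeq, allowing at most 2 other genes between members, 93 of the 206 formed 31 runs of 2 or more. In runs, 12 were higher and 4 lower, which is 17.2% called, and among the 113 outside runs 7 were higher and 3 lower, which is 8.85%, on either side of the 13.3% over all genes. With no other gene allowed between members these shares were 14.5% of 62 and 11.8% of 144, a smaller gap, and with 5 allowed they were 16.5% and 8.74% of 103 each. No test of these shares was run, since neighbours are not independent, and whether probes for similar genes share signal was not tested.

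The largest run held 10 genes: Zfp677, Zfp51, Zfp53, Zfp52, Zfp948, Zfp760, Zfp229, Zfp820, Zfp995 and Zfp942. It was the only run with calls in both directions, the fall of Zfp677 at -0.90 and the rises of Zfp229 at 0.82 and Zfp52 at 0.43, and its median was -0.01. Its genes lay on both sides of 0, 5 of them above. In another run, Zfp658, Zfp719 and Zfp819 all lay above 0, at 0.73, 0.46 and 0.78, with Zfp719 not called (adjusted p = 0.0568 from limma). Zfp658 entered the set only through its Dcr KO values, so its place above 0 was fixed by the minimum. Zfp84 and Zfp790 were neighbours and both called higher.

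Zfp212, Zfp956, Zfp777 and Zfp746 formed a run with every gene below 0, from -0.20 to -0.87, though none passed. Zfp946 stood with Zfp944 and Zfp758, which were at or below -0.11 and not called. The run of Zfp874a to Zfp729a, with 7 genes, and that of Zfp871 to Zfp763, with 6, held no call. Of the 31 runs, 12 held any call and 3 more than 1.

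**Figure D5:**
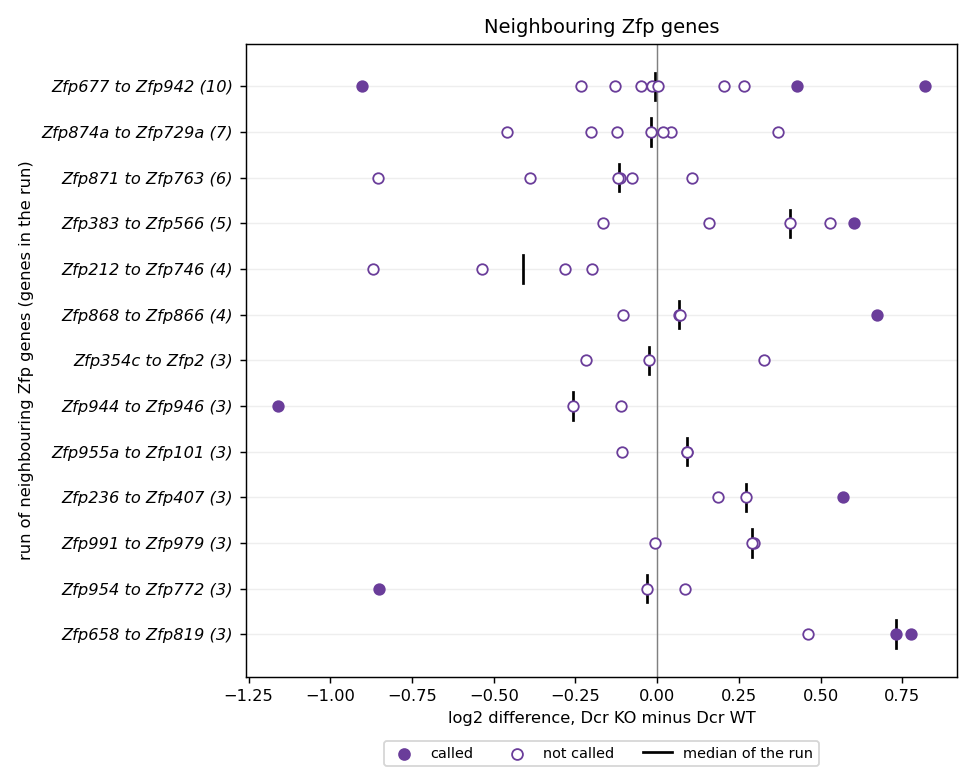
Log2 difference between Dcr KO and Dcr WT of the Zfp genes in each run of 3 or more neighbours, with the first and last gene of the run and its size at the left (filled, called; black line, median of the run). The run of 10 genes from Zfp677 to Zfp942 spans -0.90 to 0.82. The 3 genes from Zfp658 to Zfp819 all lie above 0.4, and the 4 from Zfp212 to Zfp746 all lie below 0. Zfp658 reached the minimum only through its Dcr KO values, so it had to lie above 0.

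The plot of neighbouring genes shows runs of both kinds, spread across 0 or on 1 side of it. Promoter composition was also compared, as a feature the choice of members did not use. In RefSeq windows of 300 bases around the start, available for 171 of the 206 genes (83.0%), the median GC content of Zfp promoters was 54.7% beside 61.7% over all genes tested with a window, and the median number of CpG was 15 beside 22. Within the Zfp genes, the median GC content was 53.2% for those called higher, 53.7% for those called lower and 55.3% for those not called, and all 3 medians lay within the quartiles of all Zfp genes (50.3% and 61.3%).

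By level, 85 Zfp genes had a mean under 6, 81 a mean of 6 to 8 and 40 a mean of 8 or more. They held 8 higher and 2 lower, 8 and 3, and 3 and 2 calls, with medians of 0.15, -0.02 and 0.03. The shares called were 11.8%, 13.6% and 12.5%, beside 13.7%, 14.5% and 11.8% of all genes in these ranges. The medians of all genes in these ranges were -0.013, -0.005 and -0.047. Among the Zfp genes the median was thus largest in the dim range and below 0 in the middle range. The highest mean signals, which do not rank mRNA amounts between genes, were those of Zfp330, a nucleolar protein gene, Zfp979 and Zfp281. Zfp330 fell short of the test with Dcr WT and Dcr KO levels of 10.89 ± 0.11 and 10.54 ± 0.11 (SD, n = 3 each; limma adjusted p = 0.0705), and Zfp979 had 10.53 ± 0.06 and 10.82 ± 0.03 (SD, n = 3 each; limma adjusted p = 0.0742).

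The minimum decided the set at its lower edge. Just inside it were Zfp827, with a mean over all arrays of 4.005, Zfp142 (4.01) and Zfp39 (4.01), and just outside Zfp12 (3.98), Zfp11 (3.96) and Zfp341 (3.94). The mean of 5 members was under 4 in Dcr WT and reached the minimum through Dcr KO, 2 of which were called higher (Zfp827 and Zfp658), and that of 2 was under 4 in Dcr KO, neither called.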

How the data were processed

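RNA from 3 Dcr WT and 3 Dcr KO samples was hybridised to Affymetrix arrays. The values the authors deposited are on the log2 scale, for 45037 probe sets. The submitters' processing notes credit GCRMA 2.20.0, run in R 2.11.1. Whether other arrays entered that step is not given here. No array column was left unused (0 columns). By the array annotation, 34945 probe sets had a single symbol, 932 had more and 9160 had no name here. Those with a single symbol were used, so 27 with several symbols that include a Zfp symbol were left out. All 206 symbols are in the RefSeq table of GRCm38.p6. No coordinates of Zfp genes are given, because the values name no build.

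Gene values are means of log2 probe set values. The minimum of 4 is 16 on the linear scale, which the study applies to the wild-type arrays and which was applied here to the mean over all 6. Genes that reached it were compared between groups with limma 3.58.1 under R 4.3.3 (functions lmFit and eBayes), two-sided, with Benjamini-Hochberg adjustment over all 8782 genes. The procedure was tested on simulated data. Differences are Dcr KO minus Dcr WT. With 3 arrays a group, the smallest two-sided p of an exact permutation test is 0.1, and the number of arrays limits the precision. Tables used Python 3.11.15, pandas 2.3.3 and numpy 2.4.6, and plots matplotlib 3.10.9.

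The members and gene lists were chosen with earlier results of these data known. Named genes are, among called genes, the 10 largest rises and 10 largest falls, the tested members of the 3 role lists, the 3 highest and 3 lowest means, the 3 genes on each side of the minimum, and up to 4 genes of the corepressor list by adjusted p. The other called genes, and genes named for a run, the candidate list, a large difference, a wide spread or a probe set, were chosen after their values were seen. A grouping by KRAB, SCAN and finger motifs was planned and was not analysed here. Alternatives were a minimum of 5, none or one on Dcr WT arrays, the brightest probe set, no probe sets that match several transcripts, quantile normalization, centring, a trended robust fit, the replicate number as a block and leaving out each array.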

Additional observations from a re-analysis of the deposited data

How the results depend on the processing

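The 19 rises and 7 falls stood beside 607 and 564 over all genes. They became 15 and 7 with a minimum of 5, beside 486 and 492 over all genes. With no minimum they were 17 and 7 beside 700 and 597, and with one on the Dcr WT arrays 17 and 7 beside 541 and 601. Without probe sets that match several transcripts they were 16 and 7 beside 558 and 550. Quantile normalization gave 18 and 9 beside 562 and 624, and centring 17 and 8 beside 584 and 646. A trended robust fit gave 21 and 9 beside 634 and 649, and the brightest probe set 23 and 13 beside 748 and 778. Leaving out 1 array gave 7 to 18 rises and 3 to 7 falls, while calls over all genes went from 1171 to between 357 and 783. Of the 26 genes called, 8 were called in all 6 of these fits. The cause was not tested. Genes up at least 1.2-fold numbered 42 to 60 over all settings and genes down 27 to 43. The median of 0.04 was 0.01 with a minimum of 5, 0.0267 with a minimum on the Dcr WT arrays or with the brightest probe set, 0.0164 after quantile normalization and 0.0229 after centring. It ranged from 0.0304 to 0.0833 without single arrays and was above 0 in each.

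With the replicate number as a block, 13 were higher and 4 lower, 16 of them among the 26, and calls over all genes fell to 597. Same-numbered arrays correlated at -0.217, -0.0221 and 0.0292 in their deviations from the group means, and other pairs at -0.227 to 0.314. With 3 arrays a group, these values cannot decide whether samples were paired.

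Of 864 alternatives for 59 named genes, 754 kept direction and call, 83 lost and 11 gained a call, and 16 reversed. With the brightest probe set, Zfp207 reversed to 0.0833, Zfp451 to -0.0433 and Zfp84 to -0.0267. Zfp622 reversed to 0.0233 without probe sets that match several transcripts. Zfp217 reversed to -0.0161 after quantile normalization and -0.0138 after centring. Without single arrays, values that crossed 0 ranged from -0.0663 to 0.0447 for Zfp622, from -0.142 to 0.0933 for Zfp217, from -0.352 to 0.171 for Zfp445, from -0.237 to 0.00361 for Zfp207 and from -0.113 to 0.0167 for Zfp37. Those of Zfp57, whose main difference was 0 and so could not reverse, ranged from -0.217 to 0.183. The neighbour counts with 0 or 5 genes between were chosen after seeing the data.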
